A study of Danio rerio with 12 samples.

Results

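The arrays compared here are the 6 of 12 in which the dioxin marker cyp1a was low, split by the level of the estrogen marker cyp19a1b. An array was taken as cyp19a1b-high when the signal of the brightest cyp19a1b probe set was above 150, and as cyp1a-high when that of the cyp1a probe set was above 5000. This gave 3 cyp19a1b-high arrays with cyp1a low (titled E2 1, DMSO 3 and TCDD 3) and 3 arrays with both markers low (titled DMSO 1, DMSO 2 and TCDD 2). The other 6 arrays had high cyp1a, 3 of them with low cyp19a1b and 3 with high cyp19a1b.

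Titles and markers disagree in both groups. In the cyp19a1b-high group, 2 of the 3 arrays are not titled as exposed to estradiol, and an array titled TCDD stands among those with both markers low. The groups are therefore called by their marker state throughout, and no difference below is assigned to an exposure. The marker signals chose the groups and are given only as a description.

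The study exposed wild-type zebrafish, through the water, to estradiol (E2, 0.1 µM), to the dioxin TCDD (1 nM), to both together, or to the solvent dimethylsulfoxide (DMSO, 0.1%) that all groups share. Exposure fell between 72 and 96 hours after fertilisation, and total RNA came from pools of about 30 whole larvae at 96 hours, read on Affymetrix zebrafish arrays. Of the arrays in the comparison, DMSO 1, DMSO 2 and DMSO 3 are titled as solvent alone, E2 1 as 0.1 µM E2, and TCDD 2 and TCDD 3 as 1 nM TCDD. Sample descriptions add a number and a letter (W248C and the like), by which the arrays fall into 3 blocks with 1 array of each marker state.

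Those blocks pair the arrays. In letter C, E2 1 (W249C) was paired with DMSO 1 (W248C), in the first number series of letter B, DMSO 3 (W249B) with DMSO 2 (W248B), and in the second, TCDD 3 (W358B) with TCDD 2 (W357B). Pairs carrying the same 2 numbers in letters C and B may come from the same pools, so 3 pairs may stand for fewer independent ones. A grouping by the numbers alone, W249 against W248, takes its groups from the labels and is given beside the marker grouping. Which numbers to compare was set with the marker states known, and both groupings put these arrays on the same sides.

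In fish, cyp19a1b encodes brain aromatase, which turns androgens into estrogens in radial glial cells and is itself switched on by estrogen receptors. In the liver, the receptor esr1 drives the vitellogenin genes, which encode the precursors of egg yolk and are little expressed in larvae and males unless estrogen is present. Dioxin acts through another receptor, AHR, whose best known target is cyp1a.

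The cyp19a1b signal was 296.5 in E2 1, 287.0 in DMSO 3 and 256.9 in TCDD 3. In the arrays with both markers low it was 46.3 in DMSO 1, 50.2 in DMSO 2 and 52.1 in TCDD 2. No array lay near the threshold: the values nearest to it on either side were 256.9 and 52.1 among these 6 arrays. The cyp1a signal of the 6 arrays ran from 263.9 to 414.7, against 20170 or more in the other 6. The other 2 probe sets for cyp19a1b were dim, with log2 differences of 0.44 and 0.18 between the groups.

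The array-wide mean was set to the same level in every deposited array, near 500.1 after trimming. The 3′ to 5′ signal ratio of the GAPDH control probes, a measure of RNA integrity, was 1.4, 2.1 and 1.9 in E2 1, DMSO 3 and TCDD 3, and 1.6, 2.2 and 1.9 in DMSO 1, DMSO 2 and TCDD 2. The groups overlap in this ratio. That of the acta1 control probes was 5.19, 7.66 and 9.03 in E2 1, DMSO 3 and TCDD 3, and 10.9, 7.98 and 5.74 in DMSO 1, DMSO 2 and TCDD 2. Here too the groups overlap, but the arrays of the letter C pair and of the second letter B pair differ widely, in opposite directions, and the part of this in the results was not tested.

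In the cyp1a-low arrays, vitellogenin transcripts were the ones called higher along with cyp19a1b. Of 15502 probe sets tested without a filter on low values, 3 besides cyp19a1b were higher in the cyp19a1b-high arrays and 0 were lower, and all 3 are annotated to vitellogenin genes. That is 4 probe sets or 0.0258% higher in all, at a Benjamini-Hochberg adjusted p under 0.05 in limma, against 552 (3.56%) at an unadjusted p under 0.05 in either direction. All 3 have low signals, and in the main test, which left out probe sets under the 25th percentile of the mean over the 12 arrays, they were not tested.

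A probe set shared by 2 vitellogenin genes gave a signal of 298.6 in E2 1, 201.8 in DMSO 3 and 209.9 in TCDD 3. The signal was 6.9 in DMSO 1, 4.7 in DMSO 2 and 4.6 in TCDD 2. The groups do not overlap, with group means of 237 ± 53.7 and 5.4 ± 1.3 (SD, n = 3 each). On the log2(signal + 16) scale, where 16 is a pseudocount that shrinks differences of dim probe sets, the difference was 3.54 (SE 0.35, 95% interval 2.79 to 4.30, adjusted p = 0.000290 in limma). The 3 pairs gave 3.78, 3.40 and 3.45. No detection calls were used here, so no fold is given for such low signals, and the size of the log2 difference depends on the pseudocount: with 1 in place of 16 the difference was 5.21, and with 64 it was 2.1, past the threshold both times.

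The probe set shared by 4 vitellogenin genes read 426.7 in E2 1, 272.6 in DMSO 3 and 321.5 in TCDD 3. It read 11.8 in DMSO 1, 29.1 in DMSO 2 and 45.1 in TCDD 2, so the groups do not overlap. The log2 difference was 3.05 (SE 0.28, 95% interval 2.45 to 3.64, adjusted p = 0.000140 in limma). By pair it was 3.99, 2.68 and 2.47.

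For vtg2, the signal was 167.0 in E2 1, 102.0 in DMSO 3 and 68.6 in TCDD 3. It was 18.8 in DMSO 1, 5.1 in DMSO 2 and 10.3 in TCDD 2. The groups are again apart, with a log2 difference of 2.19 (SE 0.28, 95% interval 1.58 to 2.80, adjusted p = 0.00631 in limma) and pair differences of 2.39, 2.48 and 1.69. This call was less stable than the other 2 when an array was left out. It was lost without DMSO 1, E2 1, DMSO 2 or DMSO 3, with an adjusted p of up to 0.136 in limma.

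The probe set that reads vtg4 alone had signals of 62.0, 60.4 and 50.0 in E2 1, DMSO 3 and TCDD 3, and of 4.8, 23.0 and 9.6 in DMSO 1, DMSO 2 and TCDD 2. The groups do not overlap, but the log2 difference of 1.41 (SE 0.25) did not pass the test (adjusted p = 0.152 in limma). For vtg3, which encodes a vitellogenin lacking the phosphate-rich phosvitin domain, the log2 difference was 0.35 (95% interval -0.20 to 0.90) and did not pass. Signals were 63.9, 36.6 and 32.6 against 29.1, 30.3 and 31.1, higher in each cyp19a1b-high array but far apart only in the letter C pair. Dim probe sets without a gene symbol, whose names share a number with the vitellogenin ones that passed, did not pass. They differed by 0.10 (95% interval -0.58 to 0.77) and 0.23 (-0.36 to 0.83). Vitellogenin genes lie in near-identical copies, and probes of one may bind transcripts of another, so the probe sets are not independent readings and which copies changed is uncertain.

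**Figure D1:**
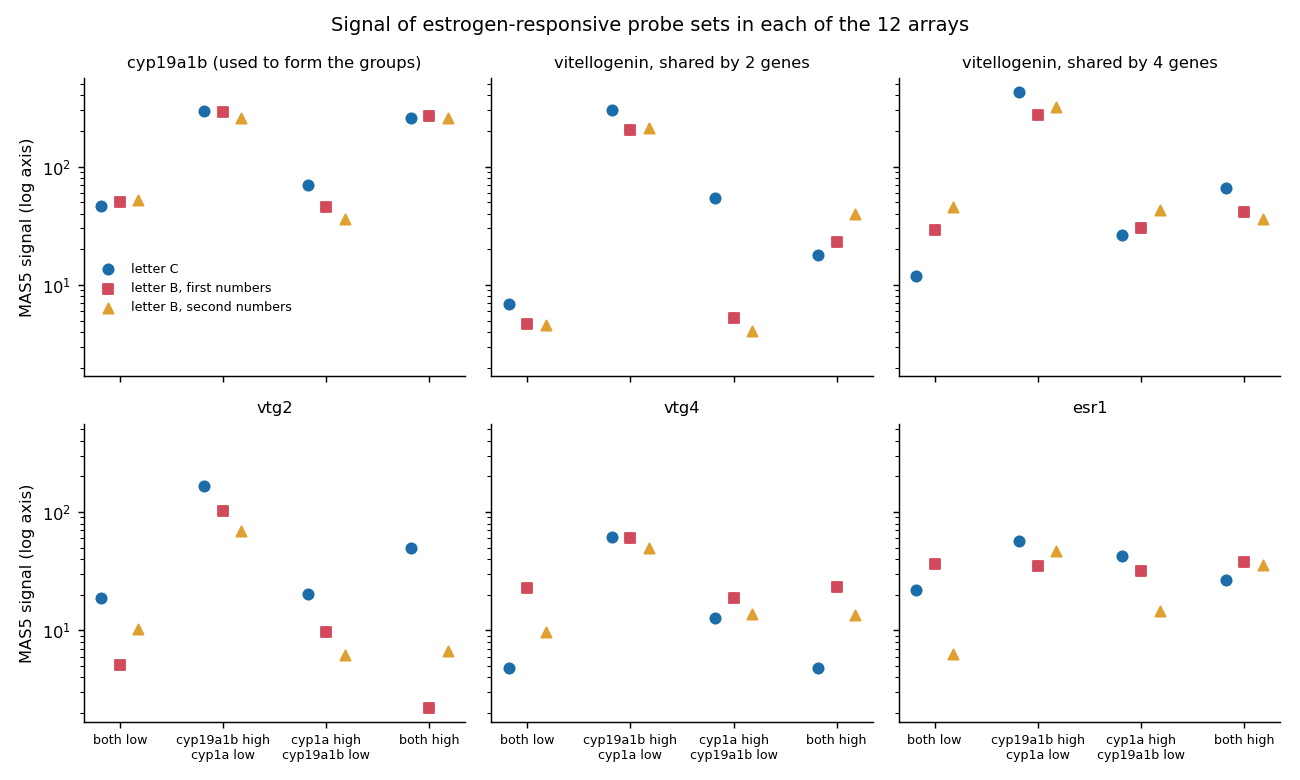
MAS5 signal (log axis) of cyp19a1b, 4 vitellogenin probe sets and esr1 in each of the 12 arrays, by marker state; each point is 1 array, with colour and shape for its block. The 3 arrays with high cyp19a1b and low cyp1a lie above all 9 others for the 4 vitellogenin probe sets, whereas cyp19a1b itself, which formed the groups, is high in 6 arrays.

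Among the arrays whose titles the markers do not contradict, the probe set shared by 2 genes read 298.6 in E2 1 against 6.9 and 4.7 in DMSO 1 and DMSO 2, with 1 array on the high side and so no test. Grouped by the description numbers alone, W249 against W248, which keeps DMSO 3 (W249B) on the high side, the 2-gene probe set differed by 3.59 on the log2 scale (adjusted p = 0.00402 in limma, 8 arrays in the fit). The same fit gave 3.34 for the 4-gene probe set (adjusted p = 0.00108) and 2.44 for vtg2 (adjusted p = 0.0478). In that grouping 5 probe sets (0.0323%) were higher and 0 were lower, the unadjusted count being 617 (3.98%). It sets E2 1 and DMSO 3 against DMSO 1 and DMSO 2, as the letter C pair and the first letter B pair do, so it is not independent of the marker grouping.

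The same probe sets were read in the 6 cyp1a-high arrays, whose values do not enter the difference between the cyp1a-low groups but do enter the spread of the fit. There cyp19a1b itself differed by 2.08 between its high and low arrays, close to the 2.17 in the cyp1a-low arrays, both fixed by the grouping. The 2-gene vitellogenin probe set read 17.8, 23.2 and 40.1 in the arrays with both markers high (titled E2+TCDD 1, E2 3 and E2+TCDD 3), and 54.3, 5.2 and 4.1 in those with high cyp1a alone (TCDD 1, E2 2 and E2+TCDD 2). These ranges overlap, and the log2 difference was 0.44 (95% interval -0.31 to 1.19).

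The 4-gene probe set read 66.0, 41.1 and 36.2 in the arrays with both markers high, and 26.5, 30.4 and 42.6 in those with high cyp1a alone. The log2 difference was 0.36 (95% interval -0.23 to 0.95), and that of vtg2 was 0.13 (95% interval -0.47 to 0.74). Of all probe sets, 1 was called higher there (0.00645%), cyp19a1b, and 0 were called lower, with 676 (4.36%) at an unadjusted p under 0.05. The 3 cyp19a1b-high, cyp1a-low arrays lay above the 9 other arrays, whose highest signals were 54.3 for the 2-gene probe set, 66.0 for the 4-gene one and 49.9 for vtg2.

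Tested directly, the difference between the cyp1a-low and the cyp1a-high arrays did not pass for any of the 3. It was 3.11 on the log2 scale for the 2-gene probe set (95% interval 2.04 to 4.17, adjusted p = 0.136 in limma), 2.69 for the 4-gene one (1.85 to 3.52, adjusted p = 0.0965) and 2.05 for vtg2 (1.19 to 2.91, adjusted p = 0.436). The call depends on the processing: the 4-gene probe set passed in 3 of 10 other settings and the 2-gene one in 1 of 10. Over all probe sets this test called 0, with 610 (3.93%) at an unadjusted p under 0.05.

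Among the 11626 probe sets above the filter, cyp19a1b itself was the only one called higher (0.00860%) and 0 were called lower. At an unadjusted p under 0.05, 218 (1.88%) were higher and 166 (1.43%) were lower, 3.30% in all. The smallest adjusted p of any probe set other than the markers was 0.231. A fit to the 6 arrays alone, with 2 residual degrees of freedom, likewise called 0 beyond cyp19a1b, with a smallest adjusted p of 0.108.

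For probe sets above the filter, the 95% intervals show the precision of single differences, and dimmer probe sets are not covered. They do not show the smallest change that the adjusted test could call. For example, zgc:113054 at 0.55 (95% interval 0.35 to 0.76) and fabp10a at -0.81 (-1.16 to -0.47) were not called. A 95% interval of a log2 difference reached 0.25 to either side at the median probe set and 0.40 at the 90th percentile. For 11589 of the probe sets (99.7%) the whole interval lay between -1 and 1.

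**Figure D2:**
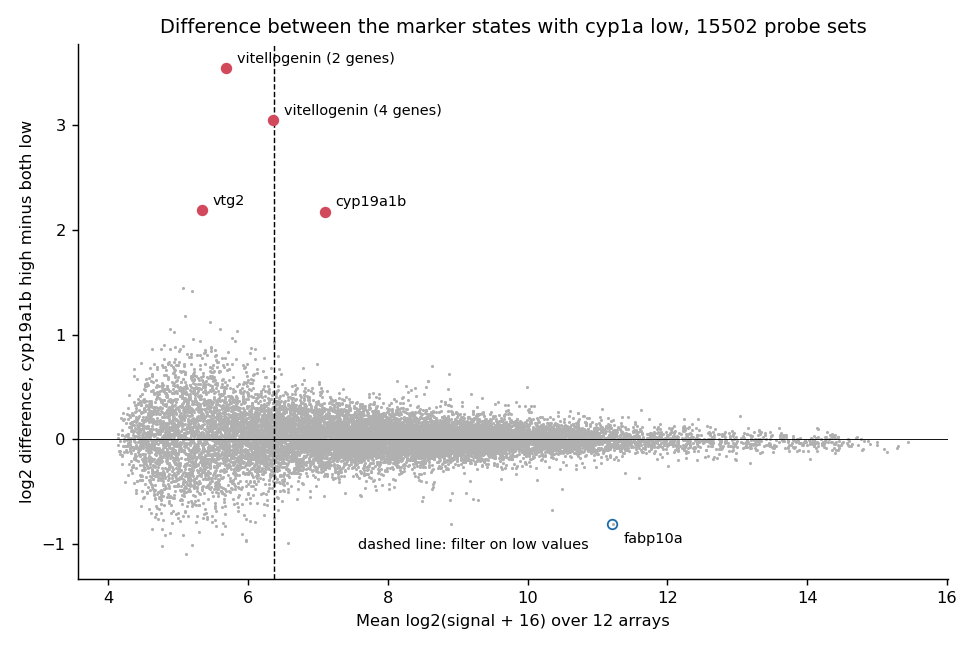
Log2 difference of the cyp19a1b-high, cyp1a-low arrays from the arrays with both markers low, against the mean log2(signal + 16) over 12 arrays; each grey point is 1 of 15502 probe sets and the dashed line is the filter at 6.37. The marker cyp19a1b (2.17) and 3 vitellogenin probe sets (3.54, 3.05 and 2.19) stand apart, the latter left of the filter.

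The other estrogen-responsive genes above the filter differed little. The list held 32 genes, 18 of them on the array, and besides cyp19a1b 9 were bright enough for the main test. None of the 9 passed in either direction, and 1 was higher at an unadjusted p under 0.05, against 1.88% of all probe sets tested. Their median log2 difference was 0.10, against 0.00 over all probe sets tested.

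That 1 gene was pck1, the gatekeeping enzyme of gluconeogenesis. Its signal was 865.4, 1268.5 and 621.1 in E2 1, DMSO 3 and TCDD 3, and 750.9, 724.7 and 634.4 in DMSO 1, DMSO 2 and TCDD 2. The difference of 0.32 on the log2 scale (SE 0.13, adjusted p = 1.00 in limma) comes mainly from the first letter B pair, at 0.79, and the second letter B pair gave -0.03.

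The estrogen receptor gene esr1 lay below the filter. The brighter of its 2 probe sets read 56.7, 34.9 and 46.9 in E2 1, DMSO 3 and TCDD 3, and 21.8, 36.2 and 6.3 in DMSO 1, DMSO 2 and TCDD 2. The groups overlap, and the log2 difference of 0.80 (95% interval 0.18 to 1.42) did not pass (unadjusted p = 0.0153 in limma). The other esr1 probe set differed by -0.25 (95% interval -0.99 to 0.50).

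Other members had intervals that include 0, most of them narrow. The secreted disulfide isomerase agr2 differed by 0.13 (95% interval -0.02 to 0.29) on the log2 scale. For ctsd, the lysosomal protease cathepsin D that also cleaves vitellogenin in the egg, the difference was -0.05 (-0.20 to 0.09). The steroid sulfotransferases sult2st1 and sult2st2 gave 0.10 (-0.11 to 0.32) and 0.00 (-0.20 to 0.20). The 2 probe sets of igfbp1a, an insulin-like growth factor binding protein, gave 0.03 and 0.11, and its paralogue igfbp1b gave 0.17. For f13a1b, a coagulation factor XIII subunit, the 3 probe sets gave 0.21, -0.05 and 0.13. The intervals of the last 2 were wider, at -0.39 to 0.28 and -0.36 to 0.62. The gene nccrp1 gave 0.03.

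Dimmer members had wider ones. The factor XIII gene f13a1a.1 differed by 0.15 (95% interval -0.55 to 0.86), the liver protease nothepsin (nots) by -0.14 (95% interval -0.65 to 0.37), the pituitary hormone prolactin (prl) by 0.10 (-0.32 to 0.53), and the egg envelope protein gene zp3b by 0.39 (-0.26 to 1.04).

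**Figure D3:**
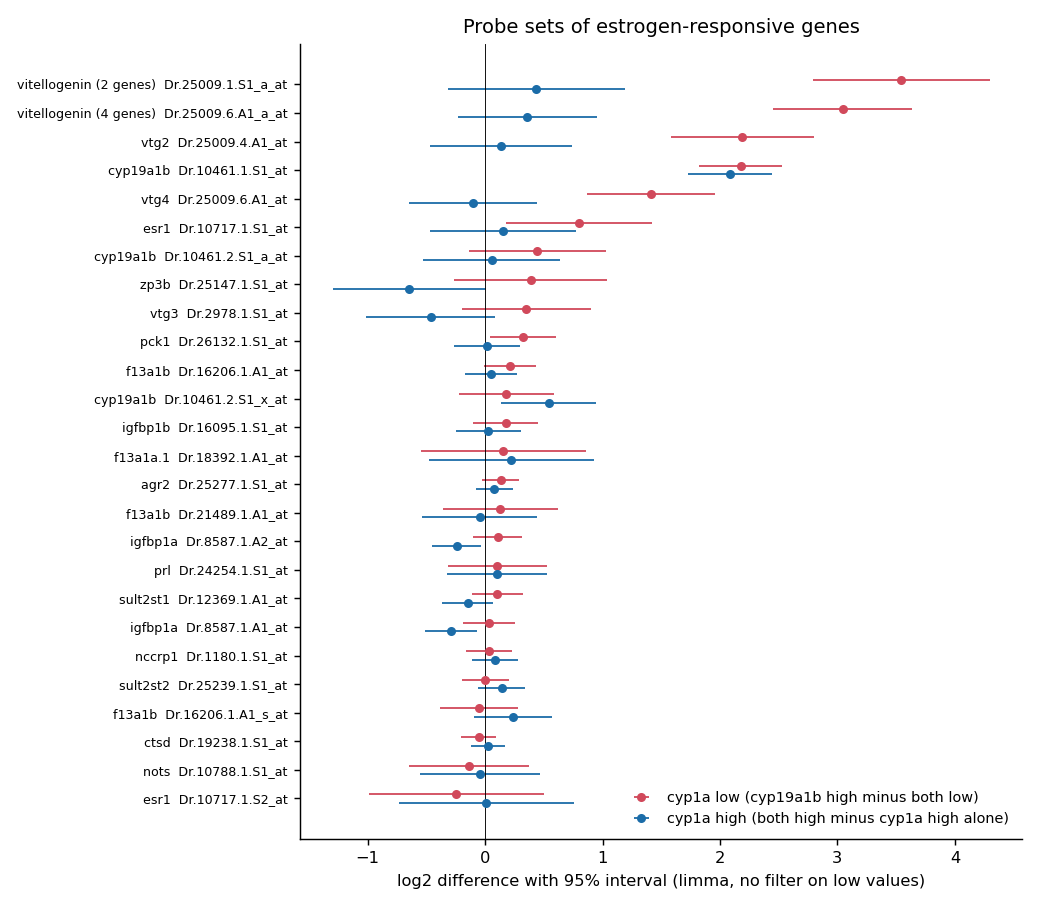
Log2 difference of each probe set of the estrogen-responsive list between the cyp19a1b-high, cyp1a-low arrays and the arrays with both markers low (points, with 95% intervals from the fit without a filter) beside the same difference within the cyp1a-high arrays. The 3 vitellogenin probe sets that passed lie at 3.54, 3.05 and 2.19 in the first and at 0.44, 0.36 and 0.13 in the second, and most of the others have intervals that include 0.

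Of the genes next to the estrogen pathway that were measured above the filter, 0 passed. In the list of estrogen receptors and their coregulators, 4 of 20 genes were measured above the filter, 0 passed, and the median log2 difference was 0.00. The 4 were esrrga, an estrogen-related receptor gene, and ncoa4, nrip1b and nr0b2a, so the estrogen receptors themselves are not covered by this median. In steroid synthesis and metabolism 0 of 19 measured genes passed, with a median of -0.05. The 3 members at an unadjusted p under 0.05 went in both directions: cyp17a1, the enzyme that opens the way from progestogens to androgens, at 0.36, the steroid dehydrogenase gene hsd3b7 at -0.28, and the glucuronosyltransferase gene ugt2a1 at -0.45. Over all probe sets tested, 1.88% were higher and 1.43% lower at that threshold. Pituitary and hypothalamic hormone genes had 0 of 8 passing and a median of 0.01.

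Markers of radial glia, the cells that express brain aromatase, differed little. Of 19 measured, 0 passed and 1 was higher at an unadjusted p under 0.05, glulb, a glutamine synthetase, at 0.20 on the log2 scale. The share higher over all probe sets tested was 1.88%. The median was -0.01, and that of 16 neuronal genes was 0.01. In RNA from whole larvae, fewer cells of a type and less RNA per cell cannot be told apart.

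Hepatocyte genes bear on the vitellogenins, which are made in liver. Of 33 measured hepatocyte genes 0 passed, and their median log2 difference was -0.04, with pair medians of -0.08, 0.03 and -0.02. Their mean log2 level was 10.82 in E2 1, 10.78 in DMSO 3 and 10.52 in TCDD 3. In DMSO 1, DMSO 2 and TCDD 2 it was 10.89, 10.72 and 10.705. The mean was thus lower in TCDD 3 than in TCDD 2, which the pair medians do not show. In all 3 pairs 8 members were lower and 3 higher, against 10.3% and 12.3% of all probe sets tested. Most of the list differed little, among them apoa1a, the major apolipoprotein of high-density lipoprotein, at -0.06, the fibrinogen chains fga, fgb and fgg at 0.07, 0.01 and -0.02, and transferrin (tfa) at -0.12.

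The member that differed most was fabp10a, the liver bile acid and fatty acid binding protein. Its signal was 2561.4 in E2 1, 2856.8 in DMSO 3 and 1155.4 in TCDD 3, against 4586.3 in DMSO 1, 3411.2 in DMSO 2 and 2969.6 in TCDD 2. The groups do not overlap, and the log2 difference was -0.81 (SE 0.16, pairs -0.84, -0.25 and -1.35), but it did not pass (adjusted p = 0.542 in limma). Without DMSO 3 it was -1.09 and did pass (adjusted p = 0.00448 in limma). Within the cyp1a-high arrays fabp10a differed by -0.21, and the difference between the 2 settings had an unadjusted p of 0.0177 (adjusted p = 0.998 in limma). Also lower at an unadjusted p under 0.05 was crp, a C-reactive protein gene, at -0.59, almost wholly from the second letter B pair at -1.47. The apolipoprotein gene apoa4b.1 was higher at that threshold, at 0.22. Over all probe sets tested, 1.88% were higher and 1.43% lower there.

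The 24 probe sets with 1 gene symbol, the same sign in all 3 pairs and the smallest p, 12 in each direction, did not pass and are given as values. Since direction and rank chose them, neither is a finding. In 14 of the 24 the groups do not overlap. Over all 11626 probe sets the cyp19a1b-high arrays lay wholly above in 2.37% and wholly below in 1.93%, and the choice favours such probe sets.

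On the higher side the smallest p belonged to zgc:113054, with signals of 588.7, 443.1 and 381.8 in E2 1, DMSO 3 and TCDD 3 and of 375.7, 294.2 and 271.1 in DMSO 1, DMSO 2 and TCDD 2. All 3 cyp19a1b-high arrays were above the others, by 0.63, 0.57 and 0.47 in the pairs, with a mean of 0.55 (SE 0.10, adjusted p = 0.231 in limma). The 2 probe sets of zgc:111983 differed by 0.50 and 0.70.

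For irg1l, the cyp1a-high arrays went the other way: its pairs gave 0.76, 0.64 and 0.48 in the cyp1a-low arrays and -0.66, -0.55 and -0.08 in the others. This contrast had the smallest unadjusted p of the 24 for a difference between the 2 settings, 0.000108, and did not pass (adjusted p = 0.998 in limma). Its level also differed between blocks, with signals of 676.6 and 980.8 in E2 1 and DMSO 3 but 273.7 in TCDD 3.

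The other probe sets on this side had log2 differences of 0.25 to 0.56. They read rif1, which acts in replication timing and DNA repair (0.38), gemin7 of the SMN complex (0.49), the epithelial transcription factor gene elf3 (0.44), the histone H2B ubiquitin ligase gene rnf20 (0.56), dap (0.25), the protein acetyltransferase gene naa60 (0.46), the carboxypeptidase N gene cpn1 (0.25) and rgl1 (0.49). For cpn1 the signals were 1899.5, 1752.7 and 1813.3 against 1536.6, 1464.8 and 1573.8, a small difference with no overlap.

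On the lower side, after fabp10a, the smallest p belonged to nucb1, a calcium-binding Golgi protein gene, at -0.48. Its signals were 1348.4, 1073.0 and 995.0 in E2 1, DMSO 3 and TCDD 3, below the 1881.8, 1391.5 and 1506.8 of DMSO 1, DMSO 2 and TCDD 2. The other 3 nucb1 probe sets went the other way, at 0.37, 0.11 and 0.12, so the gene has no agreed direction. The same holds for fundc2, at -0.27 on this probe set and 0.20 on another, and 1 other probe set each of rif1, rnf20 and rgl1 was below 0, at -0.06, -0.08 and -0.04.

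The largest difference on the lower side was that of ephb4a, an ephrin receptor of veins, at -0.99 (SE 0.25), from signals of 103.6, 38.5 and 21.6 against 127.9, 86.5 and 113.9. The groups overlap, since E2 1 was above DMSO 2. The remaining ones were si:dkey-193p11.2 (-0.51), gk5, a glycerol kinase gene (-0.38), cdc42se1 (-0.46), the kinase gene stk17a (-0.41), the pentraxin gene crp3 (-0.57), phactr4b, a regulator of protein phosphatase 1 and actin (-0.39), ube2ql1 (-0.55) and the collagen gene col15a1b (-0.40). For crp3 and ube2ql1 the second letter B pair supplied most of the difference, at -1.17 and -1.07.

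The same difference was read within the cyp1a-high arrays, which do not enter the estimates of these 24 but share in the estimate of the spread, and so in the p that ranked them. Of the 12 higher ones 5 were also higher in the cyp19a1b-high arrays there, and of the 12 lower ones 9 were also lower. Over all probe sets above the filter except the markers, the differences in the 2 settings had a Pearson correlation of -0.02. The share with the same sign in both settings over all probe sets is not given, so these counts are a description only. Over all probe sets, 0 other than cyp19a1b passed within the cyp1a-high arrays (0.00860% called higher, cyp19a1b itself, and 510 or 4.39% at an unadjusted p under 0.05), and the smallest adjusted p of the others was 0.947 in limma. The direct test of the difference between the 2 settings called 0 of 11626, with 429 (3.69%) at an unadjusted p under 0.05.

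**Figure D4:**
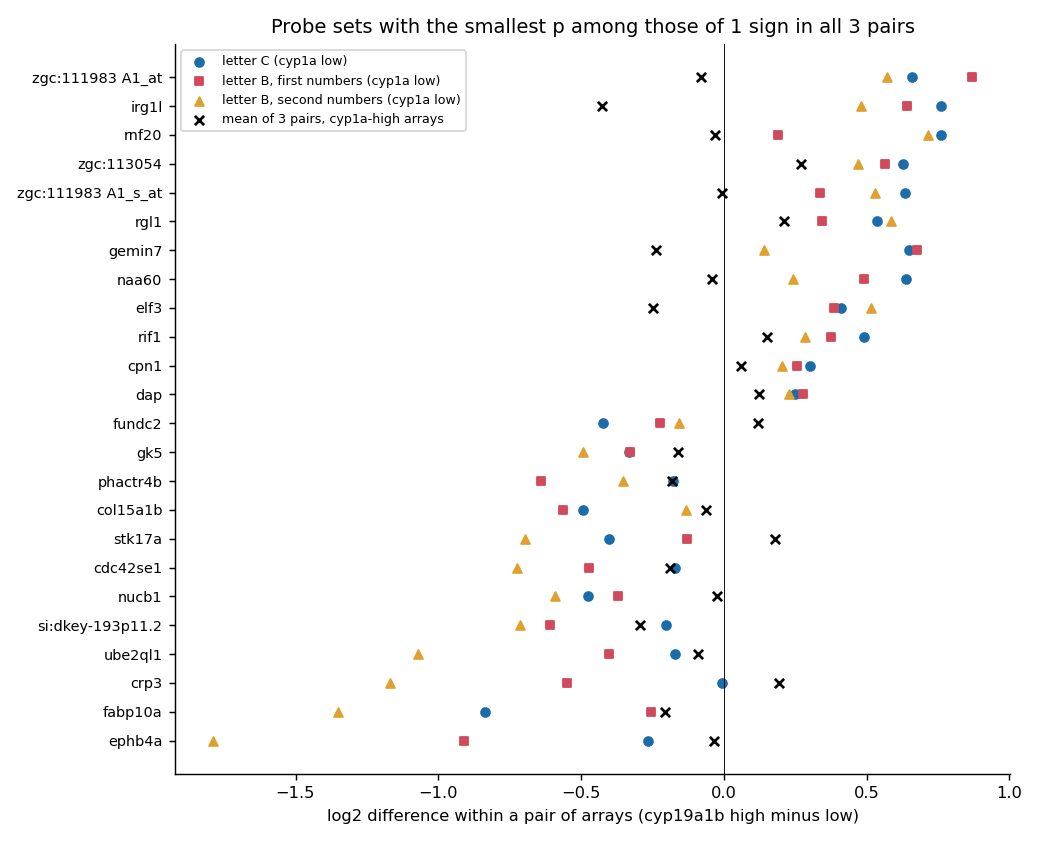
Log2 difference between the cyp19a1b-high, cyp1a-low array and the array with both markers low in each of the 3 pairs, for the 24 probe sets with the smallest p and the same sign in all pairs; colour and shape mark the pair, and a cross the mean difference within the cyp1a-high arrays. None passed; the pairs lie close together for zgc:113054 (0.63, 0.57 and 0.47) and far apart for ephb4a (-0.27, -0.91 and -1.79).

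The pairs shared few large differences beyond the vitellogenins and the marker. Across the probe sets above the filter, the differences of any 2 pairs had a Pearson correlation of 0.02, -0.07 or -0.07, a description only, since genes are not independent. Differences had the same sign in all 3 pairs for 1426 probe sets upward (12.3%) and 1197 downward (10.3%). The SD of the differences over probe sets was 0.26, 0.22 and 0.24 in the 3 pairs. Arrays of the same marker state in different blocks had an SD of 0.42 between DMSO 1 and DMSO 2 and of 0.25 between DMSO 2 and TCDD 2. These also hold any difference between blocks, which the pairs leave out, so the 2 kinds of SD are not like for like. Above the filter, 25, 17 and 43 probe sets were past a log2 difference of 1 in single pairs.

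Above the filter, a log2 difference past 0.5 with the same sign in all 3 pairs was found in 4 probe sets besides cyp19a1b, and none of these passed. They were zgc:111983, a probe set with no gene symbol (0.67), wls, a carrier of Wnt proteins (0.80), and rpe65a, a retinoid isomerase of the retinal pigment epithelium (-0.67). The signal of this rpe65a probe set was 1321.2, 799.7 and 1158.3 in E2 1, DMSO 3 and TCDD 3, all below the 1887.6, 1527.8 and 1751.6 of DMSO 1, DMSO 2 and TCDD 2. A brighter rpe65a probe set also differed downward, by -0.37 (unadjusted p = 0.0423 in limma). The 19 measured phototransduction genes had a median of -0.08, and 0 passed.

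In the lists of other tissues the pairs often disagreed. The 14 measured genes of the exocrine pancreas had a median log2 difference of 0.29 in the letter C pair, 0.32 in the first letter B pair and -0.56 in the second, and 0.00 over the 3, with 0 passing. For the 15 intestinal genes the pair medians were -0.06, 0.18 and -0.34. In both digestive lists the second letter B pair had the lowest median. This was not particular to them, since it also held in the heart, stress and clock lists, among others, though not in the lens list.

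The chymotrypsinogen gene ctrb.2, also a product of the exocrine pancreas, had the only probe set besides cyp19a1b that the number grouping called above the filter (2 higher in all, 0.0172%, and 0 lower, with 471 or 4.05% unadjusted). Its signal was 1259.4 in E2 1 and 1111.8 in DMSO 3, against 586.8 in DMSO 1 and 629.9 in DMSO 2, a rise of 0.94 on the log2 scale (SE 0.13, adjusted p = 0.0161 in limma). In the second letter B pair, which that grouping leaves out, it was lower, at 266.3 in TCDD 3 against 409.2 in TCDD 2. Over all 3 pairs the difference was 0.43 (95% interval -0.20 to 1.06, adjusted p = 1.00 in limma). The part that the pancreas list as a whole had in this difference was not tested.

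**Figure D5:**
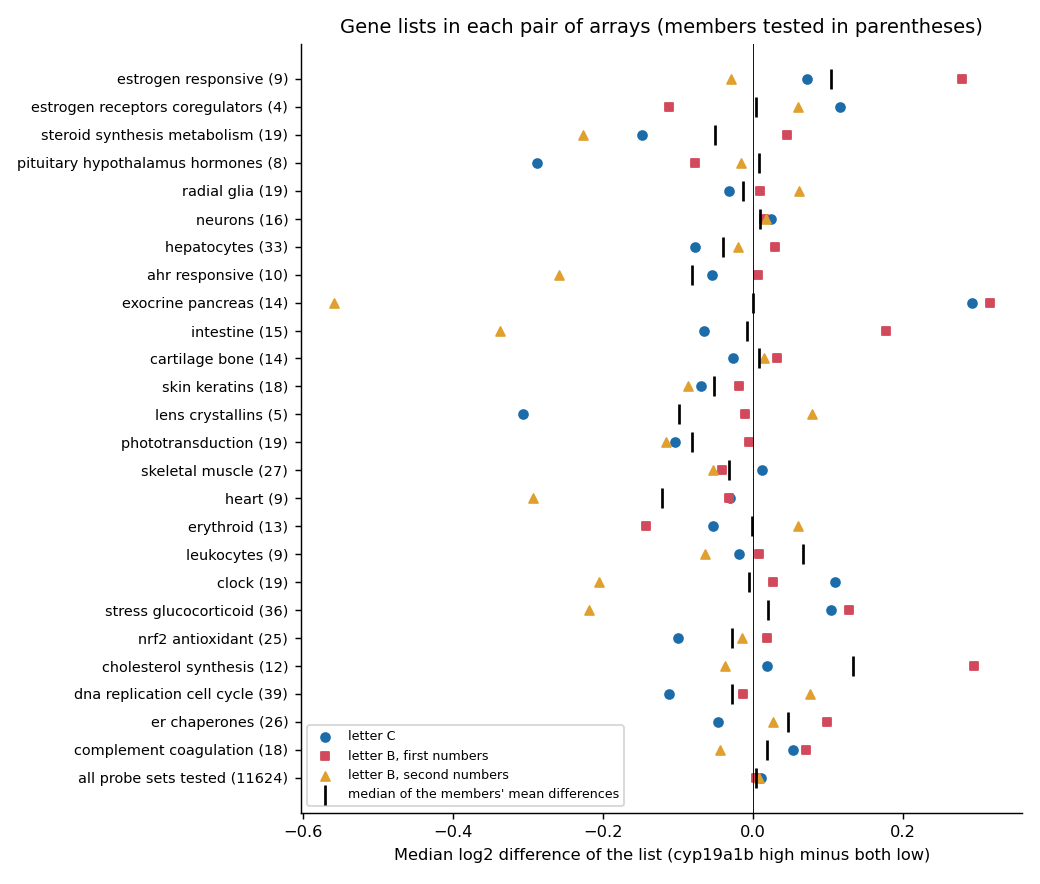
Median log2 difference of each gene list in each of the 3 pairs, cyp19a1b-high, cyp1a-low array minus the array with both markers low (colour and shape mark the pair, the bar the median of the members' mean differences). The exocrine pancreas has the widest span, 0.29, 0.32 and -0.56, and hepatocyte genes a narrow one, -0.08, 0.03 and -0.02.

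Of the remaining lists none had a member that passed. Chaperones of the endoplasmic reticulum, where secreted proteins such as vitellogenin fold, had a median of 0.05 over 26 genes. Of these, 3 were higher at an unadjusted p under 0.05, namely hspa5 (0.21), pdia6 (0.25) and hyou1 (0.20), and 0 were lower, against 1.88% higher and 1.43% lower over all probe sets tested. For hspa5, the main chaperone of that compartment, the signals were 2930.9, 2722.0 and 2357.2 against 2381.1, 2167.1 and 2350.9, so the groups overlap and TCDD 3 barely exceeded TCDD 2. Cholesterol synthesis genes had the highest median of any list, 0.13 over 12 genes, with hmgcs1 (0.31) and insig1 (0.27) at an unadjusted p under 0.05. Its pair medians of 0.02, 0.29 and -0.04 came mostly from the first letter B pair.

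Genes that respond to AHR, apart from the marker cyp1a, had a median of -0.08 over 10, with nfe2l2a, a regulator of antioxidant genes, at -0.26. Of 25 antioxidant genes, gstp1.2, a glutathione transferase gene, was at -0.20 with no overlap between groups (6097.3, 6669.1 and 6088.8 against 7585.4, 7105.9 and 6951.3). The median of that list was -0.03. Muscle, skin, cartilage, heart, blood, lens, clock, stress, complement and cell cycle lists had medians from -0.12 (heart, 9 genes) to 0.07 (leukocytes, 9 genes). The leukocyte list includes a probe set annotated to mpx that followed the marker cyp1a. It read 5.4 to 40.3 in the arrays compared here and 800.3 or more in the cyp1a-high arrays, through which it passed the filter.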

How the data were processed

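The authors' deposited values are MAS5 signals: each probe set has 1 intensity, not on a log scale. The submitters' processing notes name MAS5 and Affymetrix Expression Console without versions. Arrays carry no counts, so no depth is given, and the number of arrays limits precision. The signals were used as log2(signal + 16) without further scaling. Of 15617 probe sets, 115 controls were left out, and 10802 had 1 gene symbol, 135 several and 4680 none. Symbols came from the platform annotation, updated by a RefSeq gene table (10718 matched).

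Comparisons used limma 3.58.1 in R 4.3.3 (lmFit, eBayes with a variance trend) on all 12 arrays, with 4 marker states and 3 blocks, two-sided, Benjamini-Hochberg over all probe sets tested at 0.05. The difference equals the mean of the 3 within-block differences. The main filter dropped probe sets under the 25th percentile of the 12-array mean, leaving 11626, a signal of about 66.5. The method was also run on simulated data with 200 changed probe sets. The outcome is not given here, so nothing about sensitivity is drawn from it.

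The members and the 25 gene lists (797 genes, 1 probe set per gene, the brightest) were chosen with earlier results of these data known. Named probe sets are the 12 smallest p per direction with 1 symbol and 1 sign in all pairs, as too few passed, plus the estrogen-responsive list. The shared vitellogenin probe sets, ctrb.2, wls, rpe65a and the genes given as examples of other lists were picked with their values in view. Alternatives covered pseudocount, filter, normalization, block, variance, arrays in the fit and leaving out each array. Replicates are labelled as biological, but the labels do not say whether arrays with the same number in letters C and B share a pool. The p-values measure the spread between arrays only. No positions or sequences are given: the labels name no build.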

Additional observations from a re-analysis of the deposited data

Results flagged for a closer look

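The vitellogenin probe set shared by 4 genes differed between the cyp1a-low and the cyp1a-high arrays when a pseudocount of 64 was used in place of 16, where it lay above the filter. It lay above that filter through the cyp19a1b-high, cyp1a-low arrays, in which it is high, so this result is a description only. The cyp19a1b-state difference was then larger in the cyp1a-low arrays by 1.93 on the log2 scale (SE 0.23, adjusted p = 0.00331 in limma). With a pseudocount of 16 and no filter the same difference was 2.69 and did not pass (adjusted p = 0.0965). Without a filter it also passed in alternatives added after the data were seen: 1.93 with a pseudocount of 64 (adjusted p = 0.00507), 2.69 with the replicate block (adjusted p = 0.00492), 2.61 with array weights (adjusted p = 0.0460) and 2.96 without TCDD 2 (adjusted p = 0.0469). In all, it passed under 3 of 10 other settings and in 1 of 12 fits that left out an array. The probe set shared by 2 genes passed under 1 of 10 other settings, a pseudocount of 64 with no filter, with a difference of 1.96 (adjusted p = 0.00507), and in 0 of 12 leave-outs; vtg2 passed in none of these. The 3 cyp19a1b-high arrays with low cyp1a read 272.6 to 426.7 on the 4-gene probe set, and the 9 other arrays read at most 66.0.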

How the results depend on the processing

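Counts here leave out both markers. Above the filter, the first comparison called 0 probe sets, 1 with a pseudocount of 64, 3 with no filter, 1 with quantile normalization and 1 when grouped by number alone, and 0 to 1 when an array was left out (1 without DMSO 3, fabp10a). Within the cyp1a-high arrays the count was 0, and 0 to 1 leaving out an array (1 without E2+TCDD 2). The difference between settings had 0, and 1 with a pseudocount of 64. That was the 4-gene vitellogenin probe set, which lay above the filter through the arrays in which it is high. The number grouping called 1 probe set, 2 with a pseudocount of 64, 4 with no filter, 2 with quantile normalization, 0 with no block, 0 with no variance trend, 19 in its 4 arrays alone (11 higher, 8 lower), and 0 to 2 leaving out an array: 0 without DMSO 1, DMSO 2 or DMSO 3, and 2 lower without E2 1. The cause was not tested.

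Without a filter, the first comparison called 3, and 2 to 3 leaving out an array. The 4-gene vitellogenin probe set passed in 11 of 11 other settings (2.12 to 3.81) and in all 12 leave-outs, the 2-gene one in 10 of 11 (not with the replicate block, adjusted p = 0.0594 in limma) and 12 of 12, and vtg2 in 8 of 11 (not with a pseudocount of 1, no block or no variance trend) and 8 of 12. The difference between settings called 0, 2 with a pseudocount of 64, 1 with array weights, 1 with the replicate block, and 0 to 1 leaving out an array (1 without TCDD 2).

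With the replicate number of the titles as the block, the first comparison called 0 above the filter and 3 without it (2 higher, 1 lower), and the number grouping 1. Under that block all arrays titled 2 are cyp19a1b-low and all titled 3 high, so only the arrays titled 1 hold both cyp19a1b states. The first comparison then also draws on cyp1a-high arrays, among them TCDD 1 and E2+TCDD 1, and is no longer the mean of the 3 pairs. For the probe sets of the estrogen-responsive list, 17 of 285 values changed sign; the 24 named probe sets were chosen for 1 sign, so their signs are not counted. The precision is limited for dim probe sets.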
